A study of Mus musculus with 8 samples.

Results

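Txnip and the 4 other alpha-arrestin genes measured in both tables, Arrdc1, Arrdc2, Arrdc3 and Arrdc4, were followed in mouse adipose tissue macrophages. They were taken by gene symbol and are 5 of the 17740 genes listed for the high-fat diet (HFD) samples and of the 16436 listed for the normal diet (ND) samples, and all 5 passed the filter on low counts in both tables. Txnip was selected on its difference between adhesion-related macrophages (ARMs) and stromal vascular macrophages (SMs), being lower in ARMs on both diets, so that difference is described for it without a test. The other 4 were chosen for belonging to its family, with earlier results of these data known, and their differences were tested.

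ARMs are macrophages that stay attached to adipocytes when collagenase-digested epididymal white adipose tissue (eWAT) is spun. To free them, the floating adipocyte layer was vortexed with beads until the adipocytes lysed, and the freed cells were pelleted. No such step is described for SMs. SMs, which the labels call NARM, came from the pelleted stromal vascular fraction, and both were sorted by flow cytometry on CD45, CD11b and F4/80. All samples came from wild-type male C57BL/6J mice, fed either ND or, for 8 weeks, HFD. The 4 groups, ND ARM, ND SM, HFD ARM and HFD SM, had 2 RNA-seq libraries each, made from a pool of 10 ND mice or of 6 HFD mice, so differences between single mice cannot be seen.

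Alpha-arrestins are adaptor proteins. They share the arrestin fold with the beta-arrestins, and most carry PY motifs that recruit ubiquitin ligases of the NEDD4 family to membrane proteins, which are then internalised or sorted. Txnip (thioredoxin-interacting protein) binds reduced thioredoxin and blocks it, promotes the internalisation of glucose transporters and has been linked to the NLRP3 inflammasome. Its transcription follows glucose through the factors MondoA (Mlxip) and ChREBP (Mlxipl) with their partner Mlx, and Arrdc4, its closest relative in regulation, responds to the same factors. Arrdc1 drives budding of small vesicles from the plasma membrane together with Tsg101. Arrdc3 binds membrane receptors and is known from adipose tissue as a regulator of energy use. Arrdc2 is less well described.

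In the GRCm38.p6 assembly, which is the mm10 build named in the labels, Txnip lies at chr3:96557957-96561857, Arrdc1 at chr2:24925352-24935335, Arrdc2 at chr8:70835129-70839720, Arrdc3 at chr13:80883384-80896042 and Arrdc4 at chr7:68736994-68749238 (RefSeq). The promoters of Txnip, Arrdc3 and Arrdc4 are shown, since letters known to bind the factors named above can be looked up in them. In these 3 the 2 ARM libraries were below the 2 SM libraries in normalised counts on both diets, Txnip by its selection. Of all genes tested, 22.8% on ND and 26.4% on HFD had such a gap on that diet. In FPKM, Arrdc4 overlapped on HFD. RefSeq promoters, each running from 250 bases before to 50 bases after the gene's start, were found for all 5 members, and Arrdc3 has 3 entries, of which that at the gene's annotated start is shown. The windows are chr3:96557707-96558006 on the plus strand for Txnip, chr13:80883134-80883433 on the plus strand for Arrdc3 and chr7:68749189-68749488 on the minus strand for Arrdc4. Each is written 5′ to 3′ along the gene, with capitals marking any match to the motifs described next:
Txnip promoter: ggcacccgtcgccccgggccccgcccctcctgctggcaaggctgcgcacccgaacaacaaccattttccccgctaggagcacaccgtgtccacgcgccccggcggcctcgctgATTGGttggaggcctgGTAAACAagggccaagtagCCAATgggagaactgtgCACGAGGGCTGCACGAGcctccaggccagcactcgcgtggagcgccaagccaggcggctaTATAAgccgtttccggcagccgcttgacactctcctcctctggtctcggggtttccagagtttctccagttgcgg
Arrdc3 promoter: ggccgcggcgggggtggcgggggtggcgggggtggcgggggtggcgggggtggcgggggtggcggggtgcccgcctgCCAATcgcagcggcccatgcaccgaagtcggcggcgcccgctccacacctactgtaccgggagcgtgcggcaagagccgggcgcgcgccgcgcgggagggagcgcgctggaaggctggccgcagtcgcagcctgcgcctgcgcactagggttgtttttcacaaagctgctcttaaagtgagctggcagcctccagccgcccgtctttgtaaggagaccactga
Arrdc4 promoter: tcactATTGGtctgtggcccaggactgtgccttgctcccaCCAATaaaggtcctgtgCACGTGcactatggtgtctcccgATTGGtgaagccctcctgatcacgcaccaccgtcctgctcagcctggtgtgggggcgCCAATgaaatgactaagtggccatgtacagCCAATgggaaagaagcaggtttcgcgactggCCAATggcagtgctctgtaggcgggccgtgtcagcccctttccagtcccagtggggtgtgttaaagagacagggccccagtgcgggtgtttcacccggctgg

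Both strands of these windows were searched for 6 sets of letters. The paired E-box, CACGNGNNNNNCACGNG, has the layout of a carbohydrate response element, the kind of site bound by MondoA or ChREBP with Mlx. It was matched in 0.0487% of the 32851 RefSeq promoters of this length, and among the 5 members in Txnip alone, with its first base at position -85 from the start. The paired E-box asks for these letters at a fixed spacing, so sites that depart from them were not counted in any promoter. Its 2 half-sites in Txnip are also the 2 matches to the E-box variant CACGAG (6.47% of promoters), at positions -85 and -74. That variant was matched in the Arrdc1 promoter 2 times and in the Arrdc2 promoter 1 time, without the pairing.

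The perfect E-box CACGTG (7.15% of promoters) was matched only in Arrdc4, at position -193. CCAAT, the letters bound by NF-Y (37.4% of promoters), were matched 6 times in Arrdc4, 3 times in Arrdc2, 2 times in Txnip and 1 time in the Arrdc3 promoter shown. The forkhead letters GTAAACA (3.65% of promoters) and the TATA letters TATAA (24.9% of promoters) were matched among the members only in Txnip, at positions -121 and -25. Such matches describe letters and do not show binding in these cells.

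The libraries held 14508824 to 16319038 estimated read counts on ND and 18288775 to 19040133 on HFD. In the whole comparison of ARMs with SMs, 595 genes were called higher in ARMs and 39 lower of 13337 tested on HFD (4.46% and 0.292%), and 442 higher and 16 lower of 12441 tested on ND (3.55% and 0.129%). A gene was called when its fold change exceeded 1.5 and its adjusted p in edgeR's quasi-likelihood test was under 0.05. Replicate libraries are pools not stated to be otherwise independent, so these p-values measure only the spread between pools. Levels below are in FPKM, reads scaled by transcript length and by library size, which allows genes of different length to be set side by side, while differences were estimated from counts.

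Txnip was by far the most abundant member. Its FPKM was 206.66 and 205.94 in the 2 ND SM libraries and 118.41 and 108.22 in the 2 ND ARM libraries. On HFD it was 283.46 and 263.05 in SMs and 163.04 and 183.91 in ARMs. On each diet the 2 ARM libraries were the lower ones, and in FPKM the 4 groups did not overlap. The ND and HFD values come from separate tables, each scaled on its own, so the order across diets is only a description.

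From lowest to highest, the order of the groups was ND ARM (113 ± 7.21 FPKM, SD, n = 2), HFD ARM (173 ± 14.8, n = 2), ND SM (206 ± 0.509, n = 2) and HFD SM (273 ± 14.4, n = 2). The same order without overlap was found in TPM (length-scaled reads that sum to the same total in each library) and in CPM (counts scaled to library size, corrected by the trimmed mean of M-values, TMM). In the counts, Txnip reached 4158 to 5114 reads in ND ARM, 8144 to 8649 in ND SM, 8440 to 9457 in HFD ARM and 14041 to 15173 in HFD SM, so that ND SM and HFD ARM overlapped before scaling to library size.

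**Figure D1:**
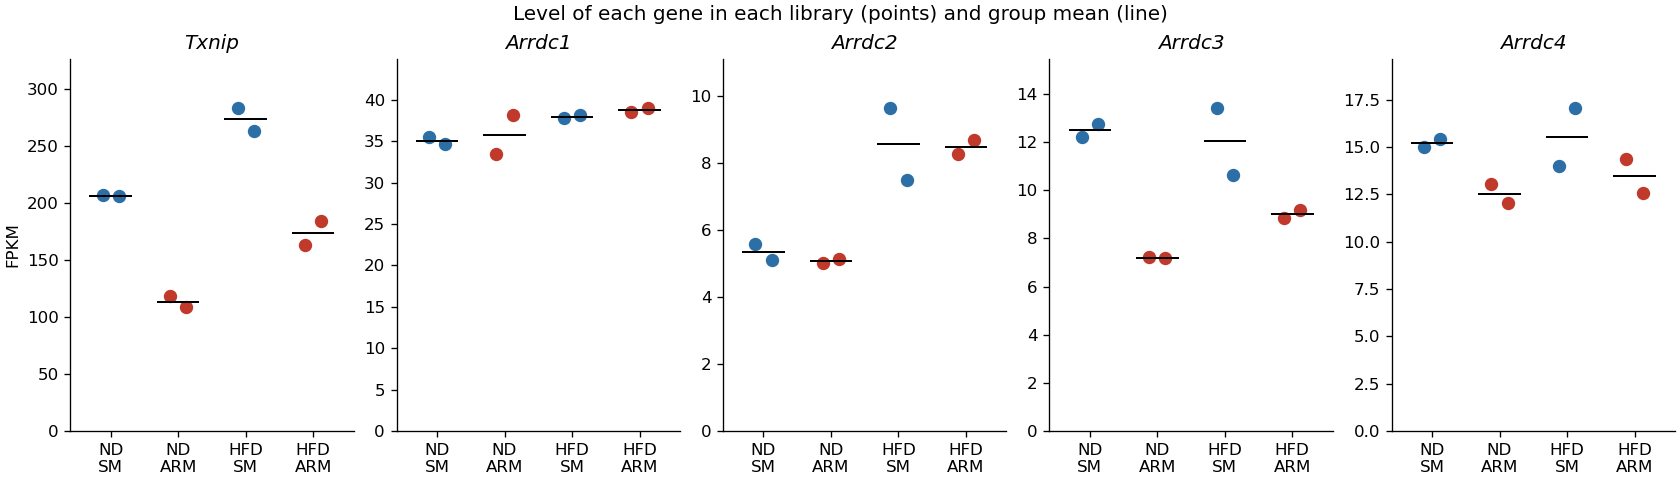
FPKM (vertical axes, each from 0 and each with its own range) of the 5 genes in each of the 8 libraries (points, blue for SM and red for ARM) with the mean of each group (lines). Txnip separates all 4 groups, from 108.22 in an ND ARM library to 283.46 in an HFD SM library, Arrdc3 separates ARMs from SMs on both diets, and Arrdc2 separates HFD from ND.

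The ARM level of Txnip was 0.55 times the SM level on ND (log2 ratio -0.86) and 0.622 times on HFD (log2 ratio -0.68), that is 45.0% and 37.8% lower. These are the values by which Txnip was chosen. The genes nearest the 1.5-fold limit were sought among those lower in ARMs at an edgeR adjusted p under 0.05. Just inside it were Retnla on ND (log2 ratio -0.61) and Dnm1 on HFD (-0.59). Just outside it were Rps28 on ND (-0.58) and Fcna on HFD (-0.58). Leaving out 1 library at a time and the other alternatives moved the Txnip log2 ratio between -0.92 and -0.81 on ND and between -0.76 and -0.61 on HFD. In sorted cells measured in bulk, fewer cells with high Txnip and less Txnip RNA in each cell cannot be told apart.

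Among all genes ranked by FPKM in a library, Txnip stood at places 281 and 295 in HFD SM, 362 and 357 in ND SM, 443 and 391 in HFD ARM and 627 and 664 in ND ARM. It made up 63.4% and 66.9% of the summed FPKM of the 5 members in ND ARM, against 75.1% and 75.2% in ND SM. On HFD its share was 70.0% and 72.6% in ARMs and 79.1% and 78.2% in SMs. Txnip thus dominated the family in all 8 libraries.

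Arrdc3, an adaptor of membrane receptors, was the one member called lower in ARMs among the 4 tested, on ND. On ND its FPKM was 7.22 and 7.18 in ARMs and 12.23 and 12.76 in SMs. Both ARM libraries lay well below both SM libraries, and the gap was many times the spread within either pair. The log2 ratio was -0.80 (SE 0.11; 95% interval -1.03 to -0.56; edgeR adjusted p = 0.00049), a level 42.4% lower in ARMs. Of the 4 Arrdc genes 1 was thus called lower on ND, where 0.129% of all genes tested were. With limma on log2(FPKM + 0.1) the ratio was about as large (-0.79) but the adjusted p was 0.053, and when limma ran on log2(FPKM + 1) of all genes, low ones included, it was 0.23.

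On HFD, Arrdc3 had 8.85 and 9.19 FPKM in ARMs and 13.44 and 10.63 in SMs. The ARM libraries were again the lower ones, but the SM libraries differed from each other by more than the lower of them differed from the ARMs. The log2 ratio was -0.45 (SE 0.10; 95% interval -0.68 to -0.22; edgeR adjusted p = 0.022), which passed the p threshold and did not reach 1.5-fold. None of the 4 Arrdc genes was called on HFD, by edgeR or by DESeq2, while Arrdc3 and Arrdc4 had unadjusted p of 0.0013 and 0.0015 (edgeR).

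The HFD value of Arrdc3 rested on which SM library was used. Without HFD SM replicate 2 it was -0.61 and the gene was called (edgeR adjusted p = 0.00017), and without HFD SM replicate 1 it was -0.26 (edgeR adjusted p = 0.055). The log2 ratio was 0.33 higher on HFD than on ND (95% interval 0.01 to 0.66), which did not pass correction over all genes (edgeR interaction, unadjusted p = 0.045, adjusted p = 0.64). In that test 22 of 13358 genes were called (0.165%), and none of them was an Arrdc gene. The 4 unadjusted p of the Arrdc genes ran from 0.045 to 0.77.

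Arrdc4, the member regulated most like Txnip elsewhere, showed a smaller gap. On ND it had 13.04 and 12.02 FPKM in ARMs and 14.98 and 15.44 in SMs, and the groups did not overlap. The log2 ratio was -0.26 (SE 0.11; 95% interval -0.49 to -0.03), and it did not pass the test (edgeR adjusted p = 0.25).

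On HFD, Arrdc4 had 14.35 and 12.54 FPKM in ARMs and 14.01 and 17.08 in SMs, so that one ARM library lay above one SM library. In counts scaled by TMM (CPM) the same libraries did not overlap, at 37.4 and 35.1 in ARMs against 43.5 and 47.5 in SMs. The log2 ratio from counts was -0.33 (SE 0.08; 95% interval -0.50 to -0.16; edgeR adjusted p = 0.024), short of 1.5-fold, while limma on log2(FPKM + 1) gave -0.19. The transcript length that turns counts into FPKM, recovered from the count, FPKM and total of each library, was 2611 and 2847 bases in HFD ARM and 3078 and 2750 in HFD SM for Arrdc4. It stayed within 2810 to 2812 bases for Txnip over the same 4 libraries. For Arrdc4 the FPKM thus carries a length estimate that varied between libraries, among 2 annotated coding transcripts of 1129 and 3905 bases (GENCODE M21).

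Arrdc1 and Arrdc2 were not called on either diet. Arrdc1, the vesicle-budding member and the second most abundant, had 33.41 and 38.13 FPKM in ND ARM, 35.53 and 34.62 in ND SM, 38.53 and 39.08 in HFD ARM and 37.79 and 38.12 in HFD SM. The HFD libraries were separated in opposite directions on the 2 scales, with ARMs above SMs in FPKM and below them in CPM (61.0 and 60.9 against 61.6 and 61.1). The log2 ratio of ARMs to SMs was 0.01 on ND (95% interval -0.22 to 0.24; edgeR adjusted p = 0.98) and -0.01 on HFD (95% interval -0.15 to 0.13; edgeR adjusted p = 0.96). The intervals leave room for a level between 0.858 and 1.18 times on ND and between 0.9 and 1.1 times on HFD.

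Arrdc2 was the least abundant member, with 5.03 and 5.13 FPKM in ND ARM, 5.6 and 5.12 in ND SM, 8.28 and 8.7 in HFD ARM and 9.67 and 7.51 in HFD SM. ARM and SM libraries overlapped on both diets. The log2 ratio was -0.13 on ND (95% interval -0.49 to 0.23; edgeR adjusted p = 0.81) and -0.05 on HFD (95% interval -0.29 to 0.20; edgeR adjusted p = 0.85). With 148 to 377 reads per library it had the widest intervals of the 5.

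In CPM, the 2 ARM libraries were both under the 2 SM libraries for 2 of the 4 Arrdc genes on ND (Arrdc3 and Arrdc4), against 22.8% of all genes tested. On HFD they did so for 3 of 4, against 26.4% of all genes tested, but the third was Arrdc1, whose gap lay between 61.0 and 61.1 CPM and whose FPKM ran the other way. Txnip, selected on this contrast, is left out of these counts. The median log2 ratio of all genes tested was -0.02 on ND and -0.01 on HFD. Permuting 2 against 2 libraries gives an exact two-sided p of 0.333 at the least, so the tests rest on the spread shared across genes.

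**Figure D2:**
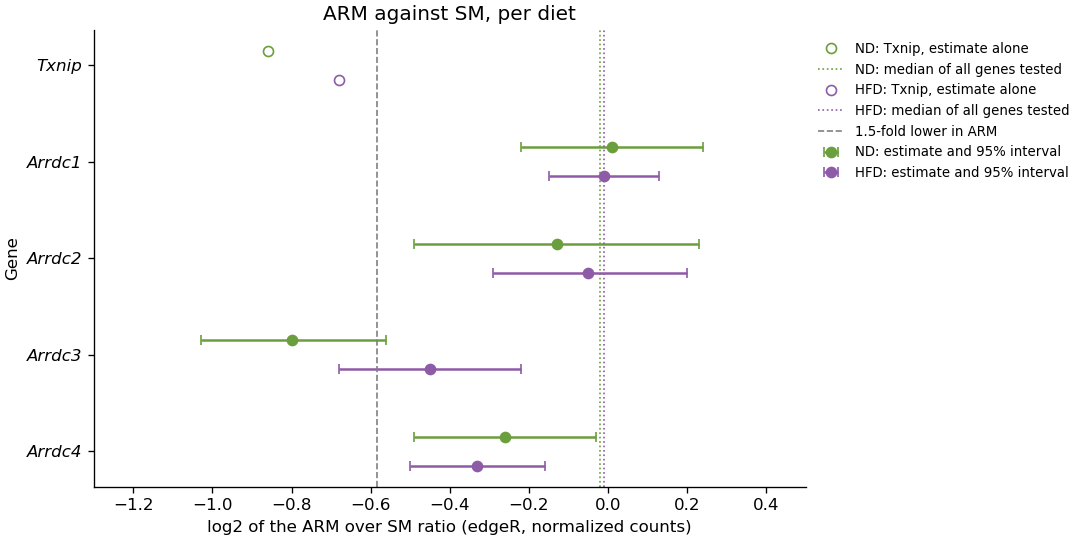
log2 of the ARM over SM ratio (horizontal axis) of the 5 genes on ND (green) and HFD (purple), with 95% intervals for the 4 genes tested and the estimate alone for Txnip, beside the median of all genes tested (dotted lines) and the 1.5-fold limit (dashed line). Arrdc3 lies at -0.80 on ND and -0.45 on HFD, Arrdc4 at -0.26 and -0.33, and the intervals of Arrdc1 and Arrdc2 include 0.

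Between the diets, levels are given side by side without a test. The ND and HFD tables were made separately, with 8.55% to 9.36% of values not whole in the ND counts and 32.29% to 32.91% in the HFD counts. The recovered lengths also differed, being 1.04 to 1.08 times as long on HFD for Txnip, Arrdc1, Arrdc2 and Arrdc3 and 0.935 times for Arrdc4. The member with the largest HFD over ND ratio was Arrdc2. Its mean was 8.49 FPKM on HFD and 5.08 on ND in ARMs (1.67 times), and 8.59 on HFD and 5.36 on ND in SMs (1.60 times).

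Txnip followed, at 1.53 times in ARMs and 1.32 times in SMs. Arrdc1 was 1.08 times as high on HFD in both cell types. Arrdc3 was 1.25 times as high in ARMs and 0.963 times in SMs. In ARMs, both HFD libraries lay above both ND libraries in FPKM for Txnip, Arrdc1, Arrdc2 and Arrdc3, that is 4 of 5 members against 25.8% of the genes tested on both diets. In SMs they did so for Txnip, Arrdc1 and Arrdc2, that is 3 of 5 against 24.6%.

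Arrdc4 had no diet difference that held on every scale. Its HFD over ND log2 ratio in ARMs was 0.10 in FPKM and 0.13 in TPM but -0.07 in CPM. For Arrdc2 the log2 ratio was 0.74, 0.77 and 0.85 in ARMs and 0.68, 0.75 and 0.77 in SMs on the same 3 scales. For Txnip it was 0.61, 0.64 and 0.68 in ARMs and 0.41, 0.48 and 0.51 in SMs. Over all genes tested on both diets the median was -0.12, -0.10 and -0.04 in ARMs and -0.15, -0.08 and -0.04 in SMs. Arrdc2 and Txnip stood above it on every scale, while Arrdc4 in ARMs was below it in CPM.

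**Figure D3:**
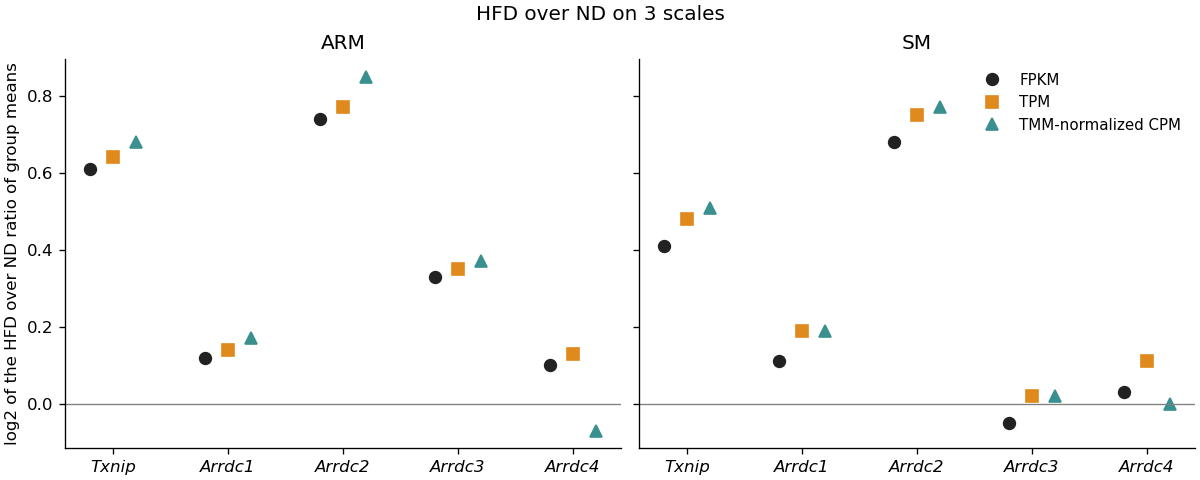
log2 of the ratio of HFD to ND group means (vertical axis) of the 5 genes in ARMs (left) and SMs (right), as FPKM (circles), TPM (squares) and TMM-normalised CPM (triangles), each point resting on 2 HFD and 2 ND libraries. Arrdc2 is highest in both panels, from 0.68 to 0.85, Txnip follows from 0.41 to 0.68, and Arrdc3 lies at 0.33 to 0.37 in ARMs but at -0.05 to 0.02 in SMs.

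The genes around the family were then read from lists of its known partners, regulators and related genes. Counts at unadjusted p under 0.05 are given without the share of all genes tested at that p, so they only describe each list. In the thioredoxin system, the target of Txnip, 13 of 13 genes were tested. Of these 1 was called higher in ARMs on ND and none on HFD, and none was called lower on either diet by edgeR or DESeq2 (at unadjusted p under 0.05, 2 lower and 2 higher on ND and 0 lower and 2 higher on HFD). The gene called was Srxn1, sulfiredoxin, which repairs overoxidised peroxiredoxins. It had 40.91 and 38.81 FPKM in ND ARM and 24.2 and 22.75 in ND SM (log2 ratio 0.77, SE 0.10, edgeR adjusted p = 0.0003). On HFD its log2 ratio was 0.33 (edgeR adjusted p = 0.015), under 1.5-fold, and the difference between diets did not pass (edgeR adjusted p = 0.18).

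The thioredoxin genes with the highest levels were Prdx1 (log2 ratio -0.04 on ND and 0.09 on HFD), Txnrd1 (0.36 and -0.10) and Prdx5 (-0.10 and 0.07). Txnrd1, thioredoxin reductase, had an edgeR adjusted p of 0.047 on ND at less than 1.5-fold. Txn1, the thioredoxin that Txnip binds, was named after its values were seen, as were Mlx and Slc2a1. Its FPKM was 64.15 and 50.2 in ND ARM and 59.32 and 63.12 in ND SM, and 61.24 and 63.19 in HFD ARM and 59.69 and 56.44 in HFD SM, with edgeR adjusted p of 0.79 and 0.59. The median log2 ratio of the list was -0.07 on ND and 0.07 on HFD.

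None of the 7 transcription factors listed for Txnip was called on either diet by edgeR or DESeq2. At unadjusted p under 0.05, 2 were lower on HFD and none differed on ND. Mlxip (MondoA) had 27.14 and 32.96 FPKM in ND ARM, 24.65 and 34.31 in ND SM, 53.14 and 44.59 in HFD ARM and 47.4 and 53.12 in HFD SM, overlapping on both diets. Mlx overlapped too, with log2 ratios of -0.08 on ND and -0.10 on HFD. Mlxipl (ChREBP) was near the floor, at 0.14 to 0.8 FPKM over the 8 libraries. Klf6 (log2 ratio 0.15 on ND and -0.13 on HFD) and Nr3c1, the glucocorticoid receptor (-0.12 and -0.17), were among the 3 most abundant of the list with Mlxip.

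Of 7 other genes known to answer to MondoA and ChREBP, 2 were called higher in ARMs on each diet and none lower (at unadjusted p under 0.05, 1 lower on each diet, and 3 higher on ND and 2 on HFD), while DESeq2 called 1 higher on ND and 2 on HFD. By edgeR the genes called on both diets were Fasn, fatty acid synthase, and Gpd1, glycerol-3-phosphate dehydrogenase. Fasn had log2 ratios of 1.18 on ND (edgeR adjusted p = 0.001) and 1.05 on HFD (edgeR adjusted p = 0.0003), and Gpd1 of 0.94 (edgeR adjusted p = 0.015) and 1.07 (edgeR adjusted p = 0.0014). Both enzymes are abundant in adipocytes, whose markers were also higher in ARMs, as described below. Whether adipocyte RNA had a part in the levels of Fasn and Gpd1 was not tested. Klf10, a glucose-responsive repressor and the most abundant of the list, had 82.54 and 86.92 FPKM in HFD ARM against 116.71 and 115.14 in HFD SM (log2 ratio -0.48, edgeR adjusted p = 0.00089, under 1.5-fold). On ND its log2 ratio was -0.22 (edgeR adjusted p = 0.31). Acly, ATP citrate lyase, had log2 ratios of -0.01 and -0.13.

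Of the NEDD4-family ligases, the enzymes that alpha-arrestins recruit, 8 were tested and 1 was called higher in ARMs on each diet, Nedd4 itself. It had 6.62 and 10.85 FPKM in ND ARM and 3.3 and 3.89 in ND SM (log2 ratio 1.28, edgeR adjusted p = 0.00074), and 7.75 and 7.59 in HFD ARM and 3.66 and 2.98 in HFD SM (log2 ratio 1.18, edgeR adjusted p = 7.1e-05). Wwp1 was the most abundant ligase, at 162.76 to 188.87 FPKM on ND and 109.76 to 122.29 on HFD, with log2 ratios of -0.13 and -0.16. Itch (-0.04 and -0.15) and Wwp2 (-0.05 and -0.28) came next. No ligase was called lower on either diet by edgeR or DESeq2, with 4 lower and 2 higher on HFD and 0 lower and 1 higher on ND at unadjusted p under 0.05.

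Among 8 cargo and binding partners read here, 1 was called higher in ARMs on each diet. Nlrp3, the inflammasome sensor linked to Txnip, was called higher in ARMs on ND, with 176.97 and 191.75 FPKM against 114.2 and 113.31 in SMs (log2 ratio 0.70, edgeR adjusted p = 0.00055). On HFD it had 152.83 and 138.61 against 107.45 and 117.34 (log2 ratio 0.35, edgeR adjusted p = 0.016, under 1.5-fold), and the difference between diets did not pass (edgeR adjusted p = 0.35). F2r, the thrombin receptor, was called higher on HFD at a low level of 0.38 to 1.22 FPKM (log2 ratio 1.25, edgeR adjusted p = 0.015), and had 1.34 on ND (edgeR adjusted p = 0.12). Slc2a1, the glucose transporter GLUT1 that Txnip helps to internalise, had 4.43 and 6.01 FPKM in ND ARM, 3.58 and 4.32 in ND SM, 5.25 and 7.05 in HFD ARM and 3.2 and 4.96 in HFD SM. Its log2 ratios of 0.40 and 0.55 did not pass (edgeR adjusted p = 0.32 and 0.11). Tsg101, the partner of Arrdc1, had log2 ratios of 0.13 and -0.03, and the iron transporter Slc11a2 of 0.48 (edgeR adjusted p = 0.01, under 1.5-fold) and 0.13.

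The other arrestin-fold genes include the beta-arrestins and the VPS26 subunits of endosomal sorting complexes. Of 7 tested, none was called on either diet by edgeR or DESeq2 (1 lower at unadjusted p under 0.05 on HFD, none on ND). Beta-arrestin 2 (Arrb2), at 134.93 to 191.12 FPKM over the 8 libraries, had a log2 ratio of 0.06 on each diet. Arrb1 had -0.05 on ND and 0 on HFD, and the retromer subunit Vps26a 0.15 and -0.09.

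**Figure D4:**
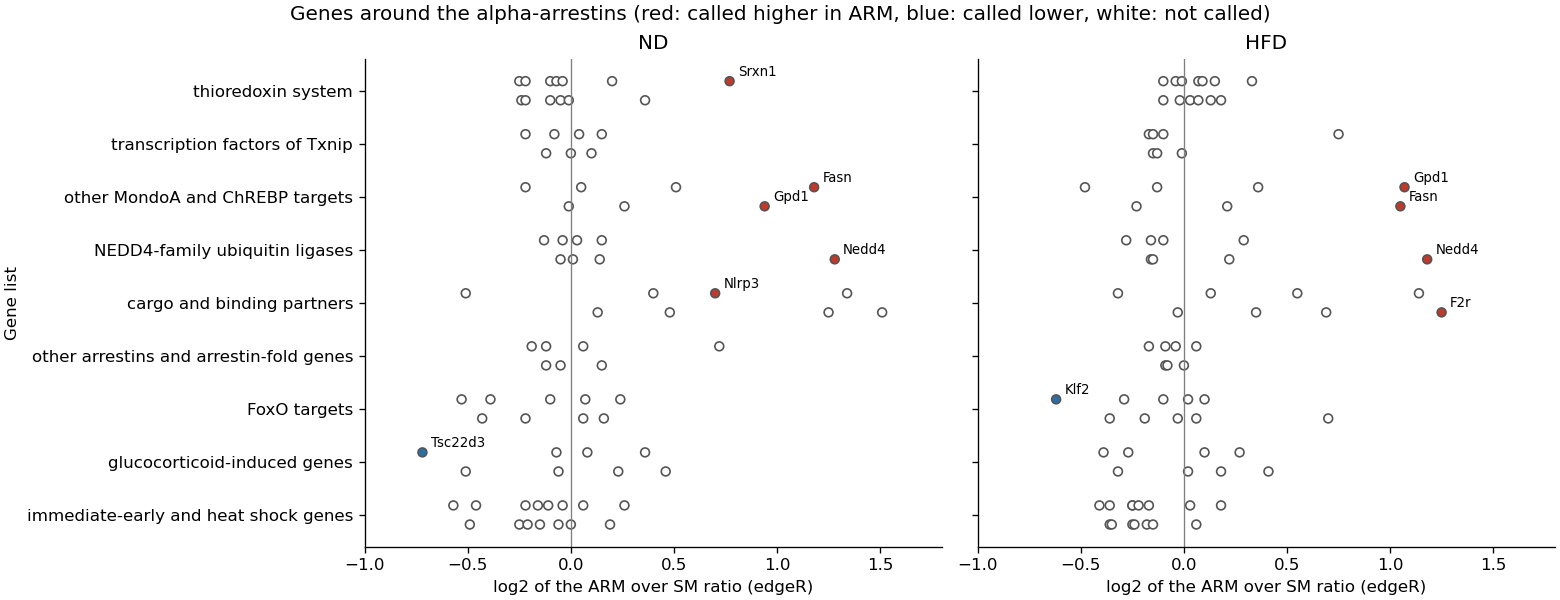
log2 of the ARM over SM ratio (horizontal axis) of the tested genes read here of 9 lists (vertical axis) on ND (left) and HFD (right), in red where called higher in ARMs, blue where called lower and white where not called. The called genes are Srxn1, Fasn, Gpd1, Nedd4, Nlrp3 and Tsc22d3 on ND and Fasn, Gpd1, Nedd4, F2r and Klf2 on HFD, and no transcription factor of Txnip and no other arrestin-fold gene is among them.

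Lists of genes induced by other inputs to Txnip were mixed. Of the FoxO targets, 1 of 10 tested was called lower on HFD and none of 9 on ND. At unadjusted p under 0.05 (edgeR), 3 were lower and 0 higher on HFD, and 3 lower and 1 higher on ND. DESeq2 called 1 lower on HFD and none on ND. The gene called by edgeR was Klf2, a factor that quiets macrophage activation. It had 189.51 and 212.6 FPKM in HFD ARM against 316.67 and 287.74 in HFD SM (log2 ratio -0.62, edgeR adjusted p = 0.00062). On ND it had 72.38 and 75.74 against 109.98 and 103.98 (log2 ratio -0.53, edgeR adjusted p = 0.0036), just under 1.5-fold. Sesn1 had log2 ratios of -0.39 and -0.36 and Irs2 of 0.07 and -0.29.

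Of 8 glucocorticoid-induced genes, 1 was called lower on ND and none on HFD (at unadjusted p under 0.05, 2 lower and 3 higher on HFD and 1 lower and 2 higher on ND; none by DESeq2 on HFD). It was Tsc22d3 (GILZ), with 42.77 and 43.88 FPKM in ND ARM against 64.31 and 78.92 in ND SM (log2 ratio -0.72, edgeR adjusted p = 0.001). On HFD its log2 ratio was -0.39 (edgeR adjusted p = 0.0092), and the difference between diets did not pass (edgeR adjusted p = 0.65). Dusp1 (-0.06 on ND and 0.18 on HFD) and Per1 (0.23 and 0.10) did not go the same way.

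Immediate-early and heat shock genes, which tissue digestion can induce, were read beside these. None of 15 was called on either diet by edgeR or DESeq2, but 12 on HFD and 4 on ND were lower in ARMs at unadjusted p under 0.05, and 1 on HFD and 0 on ND higher. Their median log2 ratio was -0.24 on HFD and -0.15 on ND. Their summed level was 26052 to 26588 TPM in HFD ARM and 28139 to 28829 in HFD SM, and 21658 to 22933 in ND ARM and 22409 to 23705 in ND SM. The most abundant were Zfp36 (log2 ratio 0.19 on ND and 0.03 on HFD), Junb (0 and -0.24) and Egr1 (-0.11 and -0.25). Their part in the lower Txnip and Arrdc3 was not tested.

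Macrophage markers had overlapping or near levels in ARMs and SMs. None of 10 (among them Lyz2, Cd68 and Csf1r) was called on either diet by edgeR or DESeq2, with 2 higher and 2 lower on HFD and 1 higher on ND at unadjusted p under 0.05. The list summed to 16683 to 17534 TPM in HFD ARM and 16893 to 17763 in HFD SM, and to 20576 to 21315 in ND ARM and 20091 to 20741 in ND SM. Its median log2 ratio was -0.05 on HFD and -0.03 on ND.

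Markers of other cells were higher in ARMs. Of 12 adipocyte markers tested, 9 were called higher on HFD and 8 on ND, with sums of 1125 to 1244 TPM in HFD ARM, 396 to 476 in HFD SM, 539 to 814 in ND ARM and 311 to 418 in ND SM. Fabp4 was the most abundant of them in every library, so these sums are largely its own. It had 359.05 and 414.17 FPKM in HFD ARM and 137.83 and 97.42 in HFD SM. On ND it had 137.65 and 196.7 in ARMs and 79.91 and 118.08 in SMs. Pnpla2 and Lipe were not called on either diet. Adiponectin (Adipoq) had 12.99 and 15.73 FPKM in HFD ARM and 1.9 and 1.99 in HFD SM. Cidea was not analysed here on ND. Vascular endothelial markers were called higher for 9 of 10 on HFD and 1 of 10 on ND (119 to 126, 36.4 to 51.4, 30.5 to 65.4 and 23.9 to 28.4 TPM in the same order of groups).

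Fibroblast and progenitor markers were called higher for 5 of 9 on HFD and 7 of 9 on ND (366 to 447, 247 to 271, 470 to 687 and 163 to 227 TPM). Mesothelial markers were called for 0 of 7 and 5 of 7 (24.8 to 35.8, 15.8 to 30.3, 36.0 to 48.0 and 9.92 to 13.6 TPM), and pericyte and smooth muscle markers for 3 of 8 and 1 of 7 (57.5 to 63.6, 26.9 to 41.0, 17.3 to 25.2 and 13.4 to 15.8 TPM). Lymphatic endothelial markers were called higher for 3 of 7 and 4 of 7, with sums of 871 to 1003, 1339 to 1399, 1232 to 1336 and 1312 to 1496 TPM. Those sums were nearly all Lyve1, which many tissue macrophages also express, at 458.62 and 398.72 FPKM in HFD ARM, 646.69 and 608.88 in HFD SM, 630.05 and 574.07 in ND ARM and 734.86 and 628.47 in ND SM, while no other marker of the list exceeded 6.5 FPKM. No marker of these 6 lists was called lower. DESeq2 called fewer markers higher in some lists, with 5 of the adipocyte markers on ND, 0 of the vascular endothelial on ND, 3 of the fibroblast and progenitor on HFD, and 2 on HFD and 3 on ND of the lymphatic endothelial markers.

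Blood cell markers were low. T and NK cell markers summed to 17.6 to 27.7 TPM and B cell markers to 7.96 to 12.3 TPM over the 8 libraries, with 1 of 5 and 0 of 3 tested called higher on HFD and 0 of 3 and 0 of 3 on ND. Trac and Ighm were not analysed here, and Ncr1 was at 0 in ND ARM. Neutrophil and mast cell markers summed to 99.5 to 99.8 TPM in HFD ARM, 84.0 to 85.3 in HFD SM, 78.5 to 138 in ND ARM and 149 to 165 in ND SM, with 1 of 6 called higher on HFD and 1 of 7 lower on ND (0 on ND by DESeq2), and Ly6g at 0 in HFD SM. None of 8 proliferation genes was called on either diet by edgeR or DESeq2 (6 higher on HFD and 2 on ND at unadjusted p under 0.05). The part of these cells in the levels of Txnip and the Arrdc genes was not tested.

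Lastly, genes were ranked by how closely they followed Txnip. For each of 7994 genes with a mean of at least 10 CPM on each diet, the log2 CPM of the 8 libraries was centred on its diet's mean and correlated with that of Txnip. The 8 points fall into ARMs and SMs, the contrast by which Txnip was chosen, so a high value mostly marks a steady gap between the cell types, and it is given as a description. Among the 5 highest were Cdkn2aip (Pearson r = 0.988), Susd3 (0.986), the zinc finger gene Zscan26 (0.984) and the phosphatase Ptp4a3 (0.984). Their log2 ratios of ARMs to SMs were smaller than those of Txnip, running from -0.53 for Cdkn2aip on HFD to -0.21 for Susd3 on HFD.

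Of the family, Arrdc3 was closest to Txnip, with r = 0.963 at place 32 of 7994. Arrdc4 followed with r = 0.894 at place 242. Arrdc2 had r = 0.427 at place 2913 and Arrdc1 r = -0.069 at place 5129. In Arrdc3, HFD SM replicate 2 stood at 0.05 above the diet's mean while the 3 other SM libraries stood at 0.37 to 0.42, and its ARM libraries stood at -0.40 to -0.19.

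**Figure D5:**
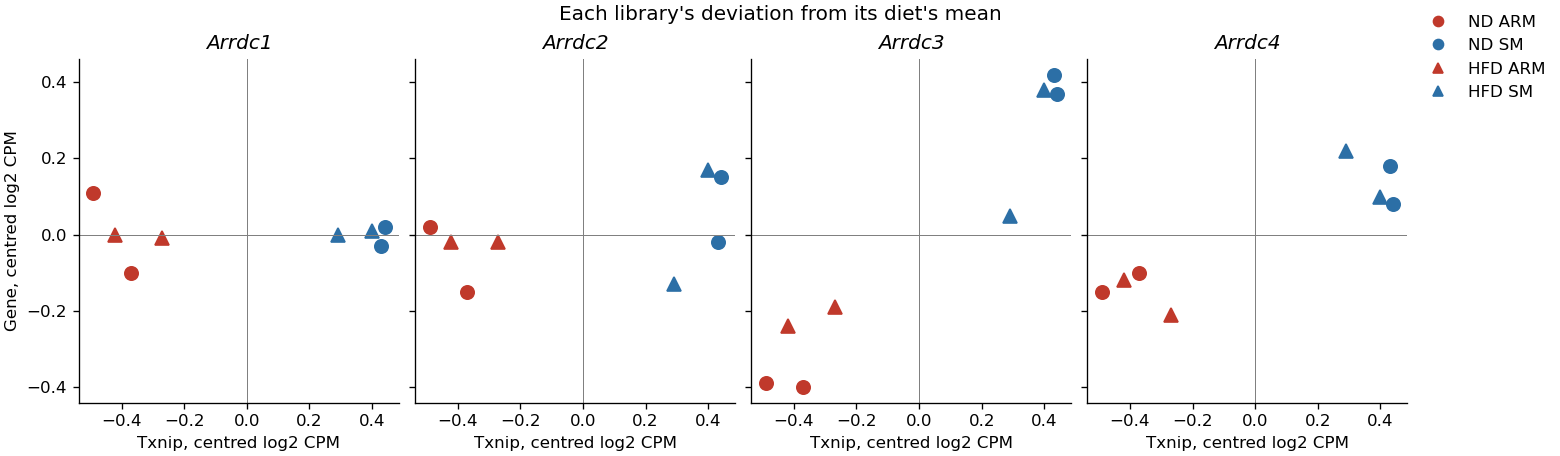
Deviation of each library from its diet's mean in log2 CPM for Txnip (horizontal axes) and each other member (vertical axes), with ARMs in red, SMs in blue, ND as circles and HFD as triangles. Arrdc3 and Arrdc4 are below 0 in all 4 ARM libraries and above 0 in all 4 SM libraries, while Arrdc1 and Arrdc2 lie on both sides of 0 within ARMs or SMs.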

How the data were processed

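RNA of sorted ARMs and SMs was extracted with Trizol and sequenced at BGI on an Illumina platform. The labels name mm10; the aligner, the counter and the annotation are not given in the sources used here. For each diet the authors deposited 1 table, whose estimated counts per gene (expected counts, not normalised) stand beside FPKM and TPM for each library. In it 0 columns of single libraries were left out, and the columns of group means were not used. Counts were rounded to whole numbers, filtered with filterByExpr, normalised by TMM and tested with edgeR 4.0.16 (quasi-likelihood, R 4.3.3), each diet apart, with Benjamini-Hochberg adjustment over all genes tested. The fit was tested on simulated data. Calls needed more than a 1.5-fold change with an adjusted p under 0.05, and the difference between diets, fitted over the 8 libraries, at an adjusted p under 0.05. DESeq2 1.42.0, limma 3.58.1 on log2(FPKM + 1) and log2(FPKM + 0.1), other scalings and filters, and leaving out each library were the alternatives.

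Since the authors' FPKM of both diets come from separate tables, HFD and ND levels were not tested against each other. Same-numbered libraries deviated from their group means with a correlation of -0.028 on HFD and 0.22 on ND, so the numbers were not taken as pairs. The members, the 20 gene lists, the motifs and the tests were chosen with earlier results of these data known. Besides the members, genes of a list could be named when called in either diet or when among the 3 most abundant of their list by FPKM, and genes among the 5 most like Txnip were named, apart from items of the lists and of this ranking that are not reported here; for marker lists, counts are given with a few examples. Likeness used log2(CPM + 0.5). Library sizes bound the precision: totals were 14508824 to 19040133 counts, and intervals of differences are 95% intervals from edgeR's moderated error. Replicate libraries differed by more than counting error (mean chi-square per gene 4.21 to 10.1).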

Additional observations from a re-analysis of the deposited data

How the results depend on the processing

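Alternatives changed 1 choice each, except that the limma fits replaced both the tool and the counts by FPKM (and in 1 case also dropped the filter) and that the threshold of the study's methods changed both the fold limit and the kind of p. The number of Arrdc genes called lower was 0 on HFD and 1 on ND (Arrdc3) except that limma on log2(FPKM + 0.1) and limma on log2(FPKM + 1) without a filter called 0 on ND, and that leaving out 1 library gave 0 to 1 on HFD and 1 to 1 on ND; where 1 library is left its spread is taken to be that of the others. Genes called higher and lower were 595 and 39 on HFD and 442 and 16 on ND, with DESeq2 273 and 7 on ND, without a filter on low counts 167 and 14 on HFD and 40 lower on ND, at the threshold of the study's methods (log2 ratio over 0.6, unadjusted p under 0.05) 922 and 95 on HFD and 794 and 94 on ND, with limma on log2(FPKM + 1) 290 and 9 on HFD and 204 higher on ND, with limma on log2(FPKM + 0.1) 305 and 21 on HFD and 52 and 3 on ND, and with limma on log2(FPKM + 1) without a filter 34 and 1 on HFD and 0 and 0 on ND (1945 genes at unadjusted p under 0.05). Leaving out 1 library gave 198 to 587 higher and 16 to 58 lower on HFD, 171 to 617 higher and 15 to 44 lower on ND, and 0 to 102 genes called for the difference between diets, against 22 (0 without ND SM replicate 2, with 1127 at unadjusted p under 0.05). With the replicate number as a block, 719 and 67 genes were called on ND and 187 for the difference, and the block changed the call of no Arrdc gene.

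Changes of sign came only where the ratio was near 0. For Arrdc1 on HFD the log2 ratio was 0.02 with library totals and 0.03 in each limma fit; on ND it was -0.10 without ND ARM replicate 2 and -0.01 without ND SM replicate 2; for its difference between diets it was 0.01 with library totals, 0.08 without ND ARM replicate 2 and 0.00 without ND SM replicate 2. For Arrdc2, leaving out 1 library gave -0.19 to 0.11 on HFD (0.11 without HFD SM replicate 1) and -0.07 to 0.22 for the difference (-0.07 without HFD SM replicate 2); for the difference of Arrdc4 it gave -0.15 to 0.00 (0.00 without ND SM replicate 1). The HFD over ND log2 ratio of Arrdc3 in SMs was 0.02 in TPM and CPM and that of Arrdc4 in ARMs -0.07 in CPM. Arrdc3 was lower in ARMs on both diets under all 14 alternatives. So was Txnip, but it was selected for this direction, so its sign adds no support. The causes were not tested. With 2 pools per group, small differences such as that of Arrdc4 on ND were not resolved.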
